A study of Homo sapiens with 5 samples.

Results

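The 9 genes described here mark epithelial and mesenchymal cell states. They are CDH1, CDH2, EPCAM, ZEB1, ZEB2, SNAI2, TWIST1, FN1 and NCAM1. They were listed by Ensembl identifier, by a rule that uses no measured value but was written with earlier results of these data known, and make up 9 of the 20001 genes with an identifier in the deposited count table. Nascent RNA was counted by PRO-seq, in which RNA polymerases already engaged on DNA are allowed to run on with biotin nucleotides. The counts therefore follow engaged polymerases and not the RNA that has accumulated. Which part of a gene was counted was not given, so transcription below stands for the count of the gene. All libraries came from HEK293T, a human line derived from embryonic kidney and expressing the large T antigen of SV40. Per the labels, both groups were monoclonal landing-pad cells, which hold a genomic site built to take up inserted DNA. That site held the PGK promoter, taken from the glycolytic gene phosphoglycerate kinase 1, in 2 libraries, and the CAG promoter, a strong synthetic promoter, in 3 libraries. The groups are called the PGK line and the CAG line. No other treatment is named in the labels, which give neither the number of clones behind each promoter nor whether replicates were separate cultures. Promoter and clone cannot be told apart. Every p-value below reflects only how far these libraries spread, estimated for each gene in part from all tested genes together. Part or all of that spread may be technical.

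Epithelial cells hold each other through E-cadherin, the product of CDH1, and through surface proteins such as the EPCAM product. In the epithelial-mesenchymal transition, a change of cell state used in development and wound repair, transcription factors of the ZEB, SNAI and TWIST families repress CDH1 by binding E-box motifs, and cells take up N-cadherin (CDH2) and deposit fibronectin (FN1). NCAM1, a neural cell adhesion molecule of the immunoglobulin family, is made by neural cells and by the embryonic kidney. The kidney is one of the tissues in which the reverse change takes place, since mesenchyme becomes the epithelium of the nephron during its development.

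Library totals lay between 3712105 counts in PGK replicate 2 and 5864157 counts in CAG replicate 3. All 9 genes passed the filter on low counts and were tested. Levels are CPM, the count relative to the TMM-scaled library size, where TMM is a scaling that assumes most genes do not differ between libraries. A CPM value also grows with the length of a gene, so levels are compared between lines and not between genes. A gene is called changed at a Benjamini-Hochberg adjusted p under 0.05 in edgeR's quasi-likelihood test over all 13400 tested genes. The identity of the cells was not checked against kidney or other marker genes, because the identifiers of other genes were not paired with names here.

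The pattern was mixed. Transcription of the epithelial genes CDH1 and EPCAM was 2.27-fold and 2.34-fold higher in the CAG line, and transcription of SNAI2 and NCAM1 was lower, by 1.57-fold and 1.77-fold. The CDH1 rise was under 2-fold without CAG replicate 3 or PGK replicate 2. It was also under 2-fold with the replicate number as a block in the fit. No PGK library shares the number of CAG replicate 3, so the block is close to leaving that library out. The EPCAM rise rested on few counts and was not called with DESeq2 or without PGK replicate 1. ZEB2 was called higher by a small amount, and its call was lost under most other settings. CDH2, ZEB1, TWIST1 and FN1 were not called. In libraries made from many cells, fewer transcribing cells and less transcription per cell cannot be told apart. In all, 3 of the 9 genes were called higher in the CAG line, where 22.7% of all tested genes were, and 2 were called lower, where 20.7% were. Together 55.6% of the 9 genes were called in either direction, against 43.4% of all tested genes, a share near that of the whole table. The median log2 fold change of the 9 genes was 0.10, and that of all tested genes was -0.0046.

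**Figure D1:**
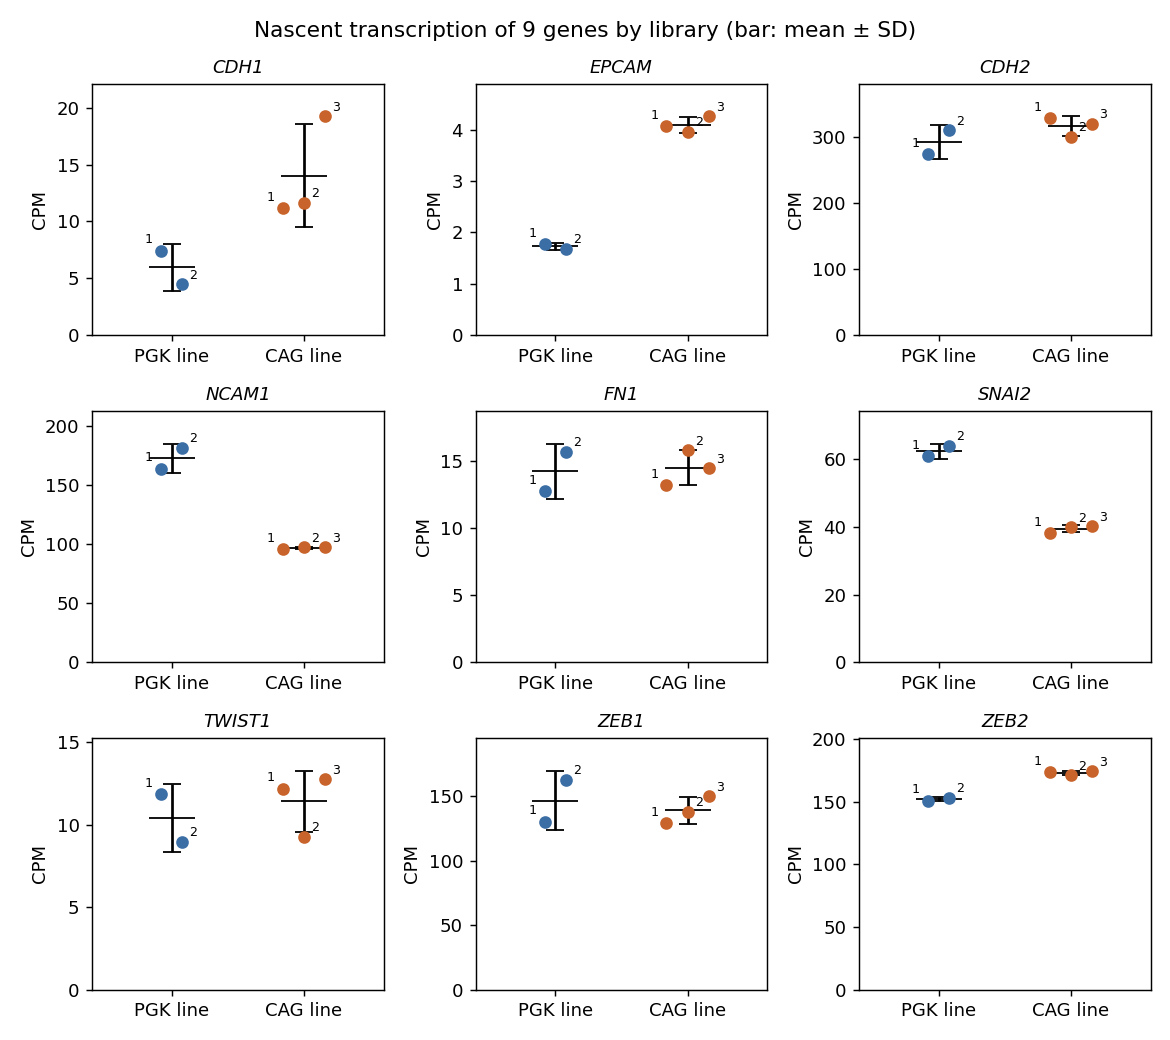
CPM of each gene (vertical axes, linear and starting at 0, with a scale of their own in each panel) in the 2 PGK libraries (blue) and the 3 CAG libraries (orange); digits beside the points are replicate numbers, and black bars give the mean ± SD. The lines stand apart for CDH1, EPCAM, NCAM1, SNAI2 and ZEB2 and overlap for CDH2, FN1, TWIST1 and ZEB1.

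CDH1 (ENSG00000039068) encodes E-cadherin, the cadherin of epithelial adherens junctions. It had 42 and 16 counts in PGK replicates 1 and 2, and 55, 59 and 113 counts in CAG replicates 1, 2 and 3. On the CPM scale these were 7.45 and 4.49 in the PGK line and 11.2, 11.7 and 19.2 in the CAG line. Every CAG library lay above both PGK libraries, and CAG replicate 3 stood well above the other CAG libraries. Mean levels were 5.97 ± 2.09 CPM (SD, PGK, n = 2) and 14.0 ± 4.51 CPM (SD, CAG, n = 3). This was a 2.27-fold rise (95% interval 1.56-fold to 3.30-fold), or 1.18 ± 0.26 (standard error) on the log2 scale (edgeR adjusted p = 0.000642). Of all tested genes, 5.13% had a larger change in either direction.

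The replicates of CDH1 differed by more than counting error. From the total of 227 counts in the CAG line, CAG replicate 3 would hold 84.2 counts at its library size, and it held 113. Chi-square per degree of freedom was 7.87 among the CAG libraries, where the median tested gene had 0.908 and 0.828% of tested genes had a higher value. Between the PGK libraries it was 3.04. The edgeR interval and adjusted p draw in part on spread shared with all tested genes, so they may understate the uncertainty for CDH1. CAG replicate 3 exceeded the mean of the other CAG libraries by 0.73 on the log2 scale. Without CAG replicate 3 the log2 fold change was 0.87, and CDH1 was still called (edgeR adjusted p = 0.00806). Without PGK replicate 1 it was 1.66 and without PGK replicate 2 it was 0.94, so the direction and the call did not rest on 1 library while the size did vary with the library left out.

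EPCAM (ENSG00000119888) encodes the epithelial cell adhesion molecule, a surface glycoprotein of many epithelia and of pluripotent cells. It was the scarcest of the 9 genes in counts, with 10 and 6 in the PGK line against 20, 20 and 25 in the CAG line. In CPM these were 1.77 and 1.68 in the PGK line and 4.07, 3.96 and 4.25 in the CAG line. All CAG libraries lay above both PGK libraries, and the replicates of each line were close to each other. The rise was 2.34-fold, or 1.23 on the log2 scale (edgeR adjusted p = 0.00801).

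With 16 counts in the PGK line and 65 in the CAG line, counting error limits the size of the EPCAM rise. The ratio of the summed counts, scaled by library size, was 2.36, with an exact 95% interval of 1.35 to 4.37 that covers counting error only. The standard error from edgeR (0.37 on the log2 scale) was smaller than the one counting allows (0.40), which was the case for this gene alone among the 9. EPCAM was no longer called with DESeq2 (adjusted p = 0.0952), and also not in edgeR without PGK replicate 1 (adjusted p = 0.0639). The log2 fold change was 1.23 with DESeq2 and 1.26 without PGK replicate 1.

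NCAM1 (ENSG00000149294) showed the largest fall of the 9 genes. The PGK replicates had 923 and 646 counts, the CAG replicates 471, 492 and 573. In CPM, the PGK libraries stood at 164 and 181 and the CAG libraries at 95.8, 97.3 and 97.5. The lines were widely separated, and the CAG libraries were almost equal. Chi-square per degree of freedom was 0.0452 among the CAG libraries, and 96.7% of tested genes had a higher value. The CAG replicates were thus closer than counting error usually gives. Between the PGK libraries it was 3.91, where the median tested gene had 1.08. Mean levels were 172 ± 12.4 CPM (SD, PGK, n = 2) and 96.9 ± 0.924 CPM (SD, CAG, n = 3). On the log2 scale the change was -0.83 ± 0.07 (standard error) (edgeR adjusted p = 6.84e-10), so the level in the PGK line was 1.77-fold that in the CAG line. A lower log2 fold change was found for 3.03% of all tested genes.

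CDH2 (ENSG00000170558), the N-cadherin gene of mesenchymal and neural cells, was not called. Its counts were 1548 and 1110 in the PGK replicates, against 1620, 1522 and 1886 in the CAG replicates. This was 274 and 311 CPM in the PGK line and 330, 301 and 321 CPM in the CAG line, where the lowest CAG library lay below the higher PGK library. Its change of 0.12 on the log2 scale had a 95% interval of -0.05 to 0.28 (edgeR adjusted p = 0.250). As a ratio of CAG over PGK, this interval runs from 0.967 to 1.22. The replicates of CDH2 differed by more than counting error. Chi-square per degree of freedom was 10.2 between the PGK libraries and 3.40 among the CAG libraries, where the median tested gene had 1.08 and 0.908. Without PGK replicate 2, CDH2 was called higher in the CAG line by 0.21 on the log2 scale (edgeR adjusted p = 0.0102).

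FN1 (ENSG00000115414) encodes fibronectin, a matrix glycoprotein that mesenchymal cells deposit and bind through integrins. Its counts were 72 and 56 in the PGK line and 65, 80 and 85 in the CAG line. In CPM the PGK libraries had 12.8 and 15.7 and the CAG libraries 13.2, 15.8 and 14.5, so the lines overlapped. The log2 fold change of 0.05 had a 95% interval of -0.31 to 0.42 (edgeR adjusted p = 0.834), and its sign turned without PGK replicate 1 (-0.12) and without CAG replicate 2 (-0.0056). A difference of up to 1.34-fold in FN1 was not excluded at this depth.

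The balance of both cadherin genes was also read within each library, where library scaling cancels. It uses the same CDH1 and CDH2 counts as above, so it is no separate evidence for the CDH1 rise. The CDH2 count was 36.9 and 69.4 times the CDH1 count in PGK replicates 1 and 2, and 29.5, 25.8 and 16.7 times in CAG replicates 1, 2 and 3. The ratio was lower in every CAG library than in either PGK library. With 0.5 added to each count, the log2 ratio was 5.63 ± 0.63 (SD, PGK, n = 2) and 4.53 ± 0.43 (SD, CAG, n = 3), a difference of -1.10. The difference was -1.54 without PGK replicate 1 and -0.65 without PGK replicate 2. CDH2 counts exceeded CDH1 counts in all 5 libraries. The ratio itself depends on the lengths of both genes, and the difference between the lines was described without a test.

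**Figure D2:**
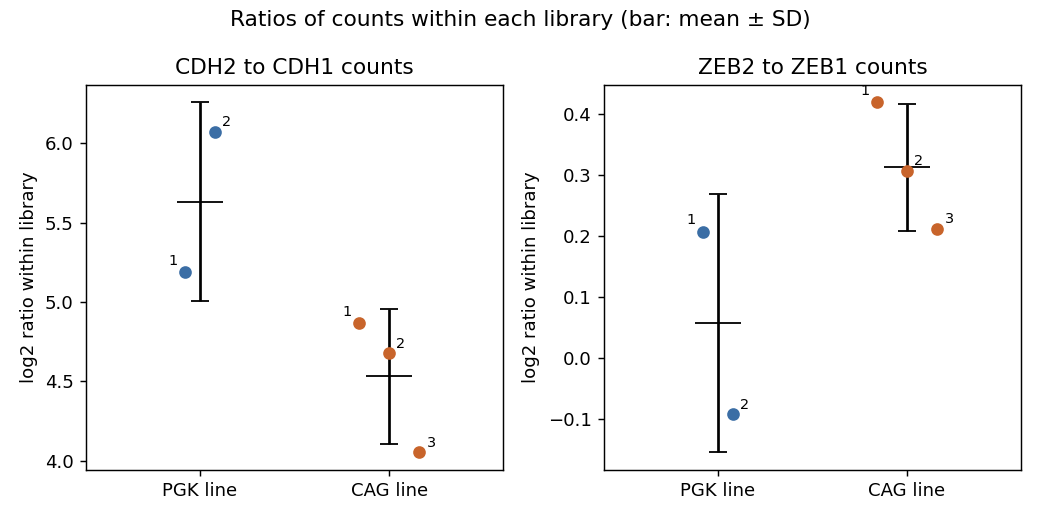
Log2 ratio of CDH2 to CDH1 counts (left) and of ZEB2 to ZEB1 counts (right) in each library, with 0.5 added to each count; points are libraries with their replicate numbers, bars give the mean ± SD, and the vertical axes do not start at 0. The CDH2 to CDH1 ratio is lower in all 3 CAG libraries, while the ZEB2 to ZEB1 ratios of PGK replicate 1 (0.208) and CAG replicate 3 (0.212) almost touch.

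Among the transcription factors, SNAI2 (ENSG00000019549) was the only one with a change that was called under every setting tried. It encodes SLUG, a zinc finger repressor of the SNAI family that is also made by neural crest cells. PGK replicates held 343 and 228 of its counts, CAG replicates 188, 202 and 236. These corresponded to 60.8 and 63.9 CPM in the PGK line and 38.2, 39.9 and 40.2 CPM in the CAG line. The gap between the lines was far wider than the spread within either. The means were 62.4 ± 2.2 CPM (SD, PGK, n = 2) and 39.4 ± 1.05 CPM (SD, CAG, n = 3), a change of -0.65 ± 0.10 (standard error) on the log2 scale (edgeR adjusted p = 3.93e-06). The level in the PGK line was 1.57-fold that in the CAG line.

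ZEB2 (ENSG00000169554), a zinc finger and homeobox repressor that binds E-boxes, had 850 and 546 counts in the PGK replicates, against 852, 864 and 1024 in the CAG replicates. In CPM it stood at 151 and 153 in the PGK line and 173, 171 and 174 in the CAG line. The lines did not overlap, but the change was small. It was a 1.14-fold rise, or 0.19 ± 0.07 (standard error) on the log2 scale (edgeR adjusted p = 0.0350), and 59.5% of all tested genes had a larger change. The call was lost under 7 of 12 other settings, while the log2 fold change stayed between 0.17 and 0.21. Among these were DESeq2 (adjusted p = 0.120), edgeR without a filter on low counts (adjusted p = 0.0509) and edgeR without PGK replicate 1 (adjusted p = 0.0937). In edgeR it was also lost without CAG replicate 1 (adjusted p = 0.113), CAG replicate 2 (adjusted p = 0.0537) or CAG replicate 3 (adjusted p = 0.103).

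ZEB1 (ENSG00000148516), the close relative of ZEB2, was counted 736 and 582 times in the PGK replicates, against 637, 698 and 884 times in the CAG replicates. Its levels were 130 and 163 CPM in the PGK line and 129.6, 138 and 150.4 CPM in the CAG line. PGK replicate 2 was the highest library and PGK replicate 1 lay among the CAG libraries. The change was -0.06 on the log2 scale (95% interval -0.23 to 0.11, edgeR adjusted p = 0.601). The PGK replicates of ZEB1 differed by more than counting error: chi-square per degree of freedom was 16.3 in the PGK line, where the median tested gene had 1.08. Without PGK replicate 1, ZEB1 was called lower in the CAG line, at -0.23 on the log2 scale (edgeR adjusted p = 0.0136), and without PGK replicate 2 the value turned to 0.10 and was not called (edgeR adjusted p = 0.314). Within libraries, the log2 ratio of ZEB2 to ZEB1 counts was 0.06 ± 0.21 (SD, PGK, n = 2) and 0.31 ± 0.10 (SD, CAG, n = 3), a difference of 0.26. The difference was 0.40 without PGK replicate 1 and 0.11 without PGK replicate 2.

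TWIST1 (ENSG00000122691) encodes a basic helix-loop-helix factor of mesoderm and cranial mesenchyme. Its PGK counts were 67 and 32 and its CAG counts 60, 47 and 75, which was 11.9 and 8.97 CPM in the PGK line and 12.2, 9.29 and 12.8 CPM in the CAG line. The lines overlapped. The log2 fold change of 0.10 had a 95% interval of -0.32 to 0.52 (edgeR adjusted p = 0.726), so a change of up to 1.44-fold was not excluded at this depth. Its sign turned without PGK replicate 2, where the value was -0.05.

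The E-box CAGGTG, which ZEB and SNAI factors bind, was searched on both strands (as CAGGTG or CACCTG, a case of the general E-box CANNTG) in RefSeq windows of 300 bases, from 250 before to 50 after an annotated start, in the build GRCh38.p14. Windows were at hand for CDH2, ZEB1, ZEB2 and FN1, and none for CDH1, EPCAM, SNAI2, TWIST1 and NCAM1. The letters were present in 20.6% of all 35116 windows. ZEB1, which has 7 windows for different starts, had 4 matches in 2 of them, and the windows of CDH2, ZEB2 and FN1 had 0 matches. The 3 matches that lie before a start of ZEB1 are shown because they are the letters that the product of the same gene binds. They are printed with the E-box in capitals, on the plus strand of chromosome 10, and named by the distance of the first E-box base to the start of its window. A match of letters is a description and not evidence of binding.
ZEB1, 57 bases before a start, chr10:31318348-31318377: ccgaggtgacagCAGGTGagggccgggtgc
ZEB1, 242 bases before another start, chr10:31318966-31318995: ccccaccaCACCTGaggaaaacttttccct
ZEB1, 85 bases before that start, chr10:31319119-31319148: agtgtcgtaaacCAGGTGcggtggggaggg

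Neighbouring rows of the table were read next, because long stretches of rows are shifted together between these lines. The file does not state its row order. The rows of the 9 genes follow the order of chromosome and position in the RefSeq gene table (assembly GRCh38.p14) for 9 of 9 genes. Only EPCAM, ZEB2 and FN1 share a chromosome, so order within a chromosome was checked on these genes alone. For each gene, the median log2 fold change was taken over the 10 tested rows before it and the 10 after it. These medians lay between -0.13 at TWIST1 and 0.16 at ZEB2, so all 9 were within 0.2 of 0 at this width. With 5 rows on either side the median at ZEB2 was 0.201.

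The called genes were set against the rows around them. CDH1 lay above all 20 of its neighbours, whose median was -0.09 and whose highest value was 0.70. EPCAM lay above 19 of 20 neighbours, with a median of -0.10. One row, 2 tested rows before EPCAM, had a larger rise of 2.03. NCAM1 lay below all 20 neighbours, with a median of -0.03 and a lowest value of -0.35. ZEB2 was close to its surroundings: its log2 fold change of 0.19 exceeded the neighbours' median by 0.02.

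SNAI2 lay below 19 of its 20 neighbours, whose median was -0.03. The tested rows just before it were lower in the CAG line as well, an observation made after their values were known. The 3 rows before SNAI2 had log2 fold changes of -0.68, -0.54 and -0.47, and all of these rows were called lower. The rows after it did not continue this: the next 2 had values of 0.14 and 0.66, of which the second was called higher. The rows adjacent to NCAM1 had values of 0.03 before it and -0.24 after it, both closer to 0 than NCAM1. No source used here says that counting kept strands apart, so the counts of a gene and of an overlapping partner on the opposite strand cannot be told apart. RefSeq lists an antisense or divergent partner by name for 6 of the 9 genes. The partners of CDH2, ZEB1, ZEB2 and NCAM1 are named antisense, and those of EPCAM and FN1 divergent. Whether any partner overlaps its gene was not checked.

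**Figure D3:**
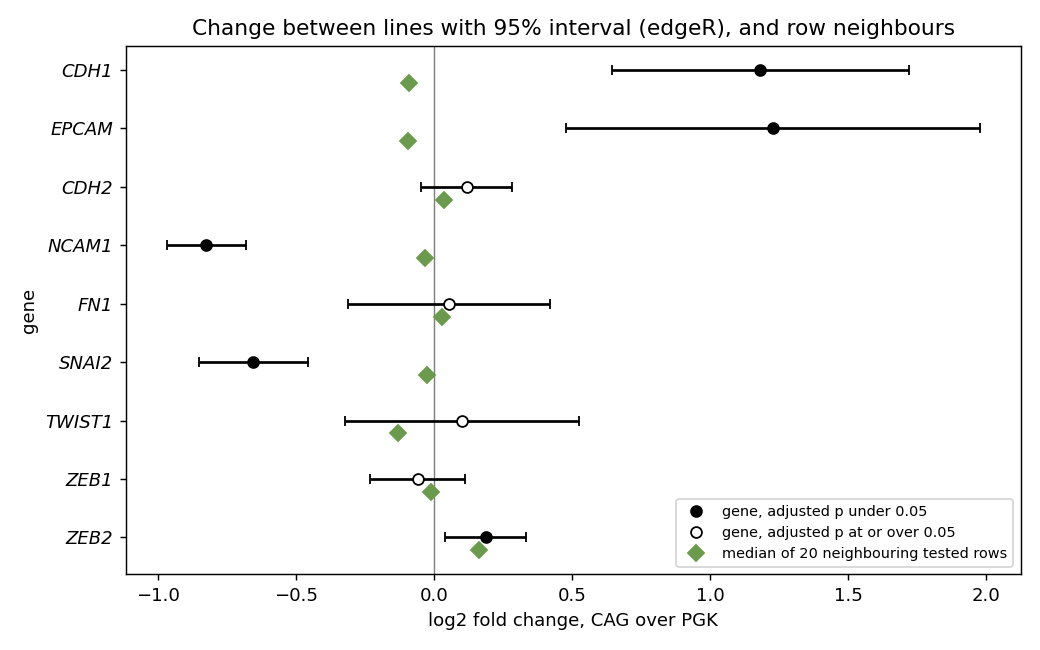
Log2 fold change of CAG over PGK (horizontal axis) for each gene, with its 95% interval from edgeR (filled circles have an adjusted p under 0.05) and the median of the 20 neighbouring tested rows (green diamonds). CDH1 and EPCAM lie to the right of 0 and SNAI2 and NCAM1 to the left, while the diamonds lie between -0.13 and 0.16. The interval of EPCAM is narrower than counting error allows, and that of CDH1 may be too narrow for its uneven replicates.

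**Figure D4:**
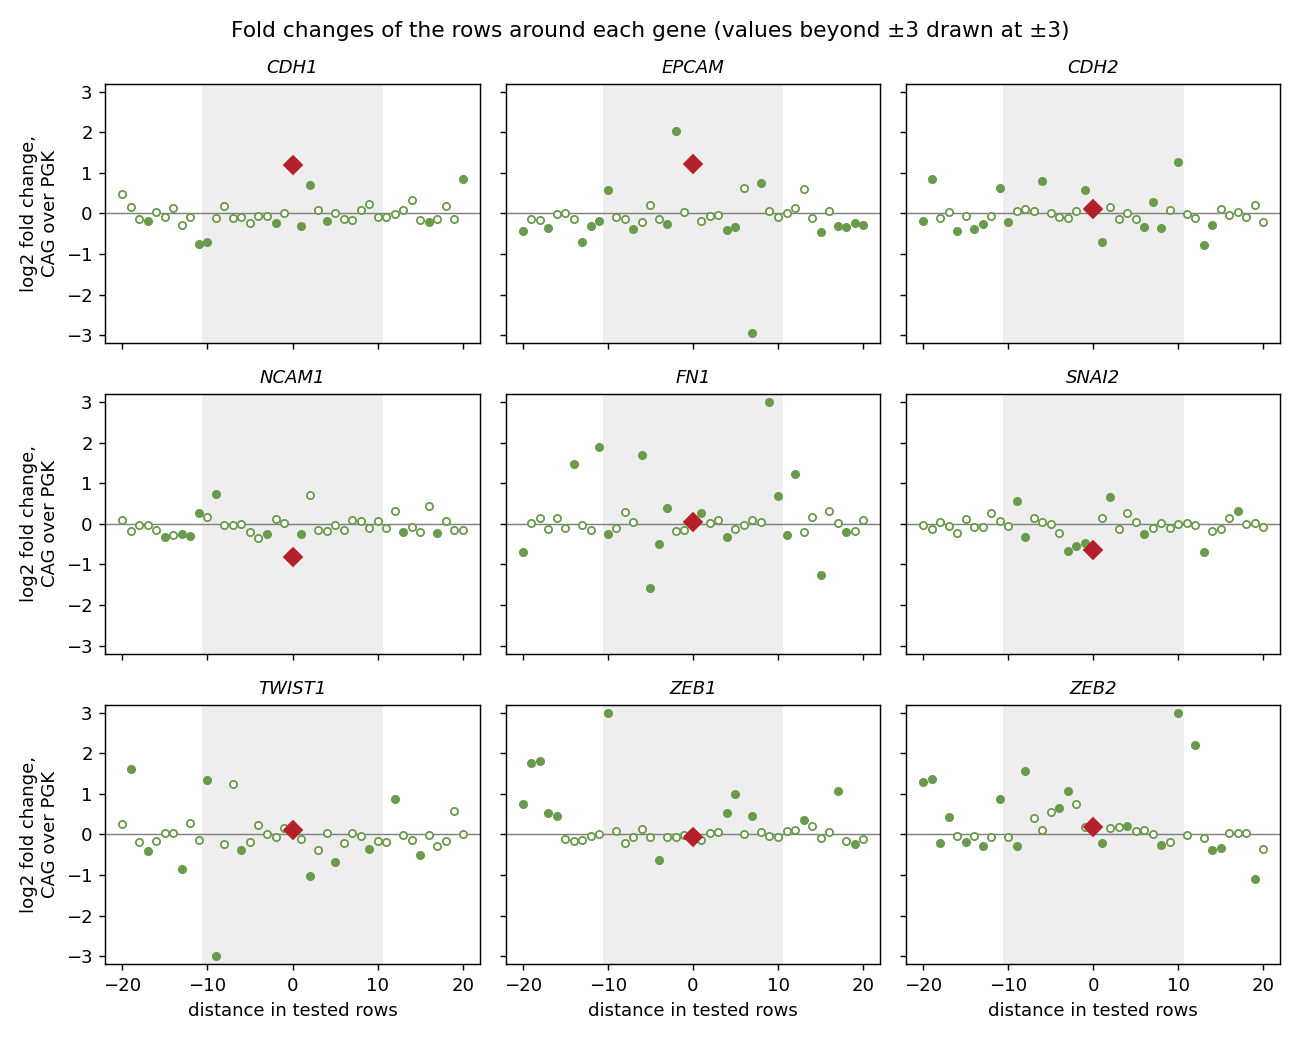
Log2 fold change of CAG over PGK (vertical axis, limited to ±3) of each gene (red diamond) and of the 20 tested rows on either side (green circles, filled where the adjusted p is under 0.05), by distance in tested rows; grey marks the 10 rows on either side that gave the medians. The 3 rows before SNAI2 are lower together with it, whereas CDH1 lies above and NCAM1 below all rows in grey.

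Other genes with a similar pattern were sought for the gene with the largest called rise and the one with the largest called fall. Likeness was the root mean square difference of log2 CPM over the 5 libraries, after each gene was centred on its own mean. These log2 values had a prior count of 2 added, which makes the changes of scarce genes smaller. For EPCAM, ENSG00000164323 was the nearest at 0.0168, and ENSG00000198453 followed at 0.0279. Their log2 fold changes in edgeR were 1.12 and 1.09, where that of EPCAM was 1.23. With 6 to 25 counts per library, the EPCAM pattern holds much counting error, so which genes come nearest carries little meaning. For NCAM1, ENSG00000184347 was nearest at 0.0118 and ENSG00000198836 followed at 0.0232. Such likeness was common: 71 genes lay within 0.1 of EPCAM and 165 within 0.1 of NCAM1.

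Over the 12 other settings, CDH1, SNAI2 and NCAM1 kept both direction and call in all of them. Their log2 fold changes ran from 0.87 to 1.66, from -0.70 to -0.62 and from -0.91 to -0.75, with highest adjusted p of 0.00806, 6.53e-05 and 6.25e-08 by any tool run (edgeR, DESeq2 or limma-trend). EPCAM kept its direction in all 12 and its call in 10. The 12 settings are not all separate, since the replicate block is close to leaving out CAG replicate 3. Libraries of the lines were fully separate in CPM for 5 of the 9 genes, the same 5 that were called, against 61.2% of all tested genes.

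**Figure D5:**
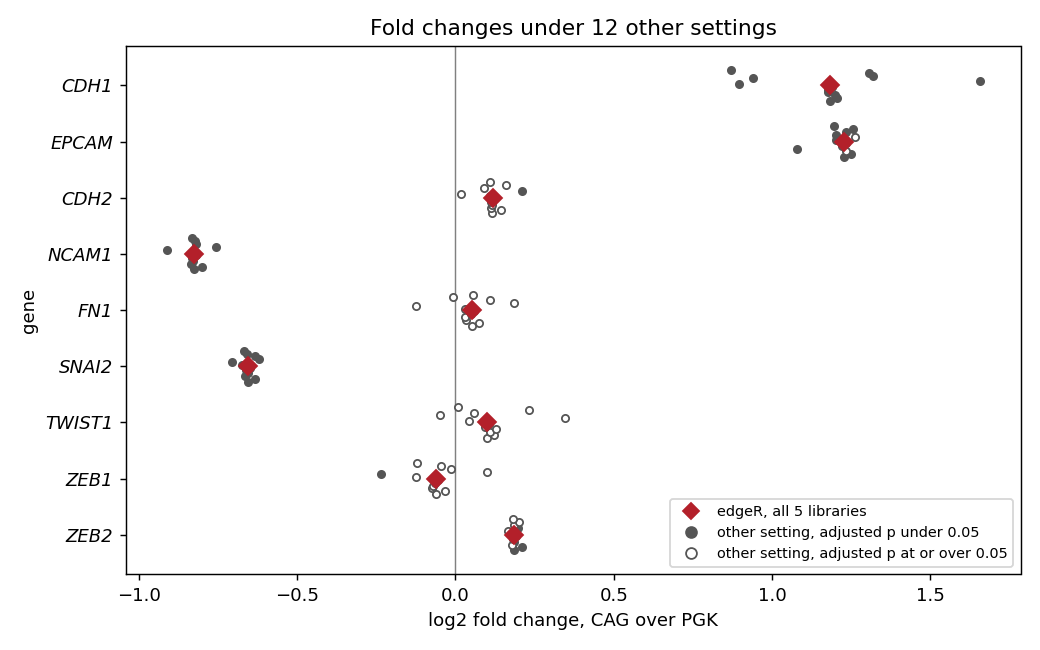
Log2 fold change of CAG over PGK (horizontal axis) for each gene in edgeR with all 5 libraries (red diamonds) and under 12 other settings (grey circles, filled where the adjusted p is under 0.05; spread vertically for legibility). CDH1 ranges most widely, from 0.87 to 1.66, SNAI2 and NCAM1 stay below 0, and FN1, TWIST1 and ZEB1 have values on both sides of 0.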

How the data were processed

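PRO-seq counts of 5 HEK293T libraries were used. The authors deposited raw counts for each Ensembl identifier. The submitters' processing notes name featureCounts 2.0.3, HISAT2 2.2.1, Bowtie2 2.5.1, UMI-tools, cutadapt and fastp 0.23.2, and the build hg19. What each tool did, the annotation, the strand setting and which part of a gene was counted were not given in the sources used here. Of 20019 rows, 18 without an identifier were left out (at most 25 counts per library). Groups came from the sample titles, and all columns matched a sample.

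Genes were kept by filterByExpr (minimum count 10, minimum total 15), scaled by TMM and tested for CAG over PGK without covariates by edgeR 4.0.16 in R 4.3.3, with Benjamini-Hochberg adjustment over 13400 genes. The test was tried on simulated counts that gave all genes the same replicate spread (dispersion). That trial does not cover genes with replicates as uneven as those of CDH1, CDH2 and ZEB1. Standard errors are the absolute log2 change divided by the root of its F statistic. The 9 genes, their roles and all lists were chosen with earlier results of these data known. All 9 are named whatever their values; likeness was read for the largest called rise and fall. Related gene and marker lists were not analysed here, since 0 reference rows carried an Ensembl identifier. Alternatives used DESeq2 1.42.0, limma 3.58.1, other scalings and filters, a replicate block and each library left out. Same-numbered libraries were not taken as pairs: no label says that a number marks a batch, and their deviations from the line means had correlations of 0.04 and -0.07.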

Additional observations from a re-analysis of the deposited data

Results flagged for a closer look

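The table also has rows with no gene identifier, which summed to 95 counts in the 5 libraries, above the limit that a count of 0 allows. None of the 9 genes lies in these rows. Single libraries standing apart were not tested for, because no line had 4 libraries.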

How the results depend on the processing

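The count of called genes (5818) stayed within 1.5 times under all 12 alternatives; it was 3927 with DESeq2 and 4754 to 5689 with 1 library left out. With 1 PGK library left, that library is assumed to vary like the CAG libraries. With the replicate number as a block (replicate block), 4667 genes were called, and ZEB2 lost its call (log2 fold change 0.18, edgeR adjusted p = 0.204). No other call among the 9 genes changed, but the log2 fold change of CDH1 was 0.90 under this setting. CAG replicate 3 has no PGK library of its number, so in this fit it has no weight in the difference between lines. The block is therefore close to leaving CAG replicate 3 out, where CDH1 was 0.87 and ZEB2 was 0.18, and is no separate check. ZEB2 was 0.18 with DESeq2 and 0.18 without a filter, both not called, and 0.17 to 0.20 with 1 library left out. EPCAM was 1.23 with DESeq2, not called, and 1.20 to 1.26 with 1 library left out. Leaving out 1 library gave 0.0183 to 0.21 for CDH2, -0.23 to 0.10 for ZEB1, -0.0478 to 0.35 for TWIST1 and -0.12 to 0.19 for FN1; the reversed values were 0.10 for ZEB1 without PGK replicate 2, -0.0478 for TWIST1 without PGK replicate 2, and -0.12 and -0.0056 for FN1 without PGK replicate 1 and CAG replicate 2. The cause of the reversed values was not tested.

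Medians of the row neighbours moved by more than the spread between replicates in some settings. With 5 rows on either side they were -0.0426 for CDH2, -0.0689 for SNAI2, -0.14 for FN1 and -0.16 for NCAM1; that of ZEB2 was 0.201, a move within that spread. With 20 rows they were -0.0491 for CDH2, -0.14 for EPCAM, 0.0336 for ZEB2 and -0.0910 for NCAM1. With 1 library left out they ran from -0.105 to -0.0386 for CDH1, -0.0953 to 0.0413 for CDH2, -0.15 to -0.0512 for EPCAM, -0.0806 to 0.0653 for ZEB1, 0.0773 to 0.20 for ZEB2, -0.10 to -0.0131 for SNAI2, -0.0363 to 0.0388 for FN1 and -0.13 to 0.0096 for NCAM1. The difference between lines in the log2 ratio of ZEB2 to ZEB1 was 0.11 to 0.40, and in that of CDH2 to CDH1 -1.54 to -0.65. The alternatives for the related gene lists were not run, since no table at hand links identifiers and symbols. Depth limits EPCAM most, with 16 counts in the PGK line.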
